A study of Mus musculus with 6 samples.

Results

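Hnrnpll and Hnrnpl, which encode a pair of related splicing regulators, and Ptprc, which encodes the CD45 phosphatase whose transcript they splice, were followed through RNA-seq of A20 cells. They are 3 of the 27179 genes counted, found in the files by their Entrez identifiers, and all 3 passed the filter that left 12430 genes for testing. The set was chosen by the level of Hnrnpll, because that gene stood higher in control sgRNA cells than in wild type, so the values of Hnrnpll and every contrast of control sgRNA with wild type for these 3 genes are given as descriptions without a test. A20 is a B cell lymphoma line of BALB/C mice. The 6 libraries form 3 groups of 2 independently repeated samples. Wild-type A20 cells carried no activator. Control sgRNA TETact-v3 cells were transduced with lentiviral vectors for the activator together with a non-targeting sgRNA, and Cd4 sgRNA TETact-v3 cells with the same activator and an sgRNA against the Cd4 promoter. Both transduced groups were collected on day 7 after sgRNA transduction. In TETact-v3 the catalytic domain of the demethylating enzyme TET1 and the p65-hsf1 activator are brought to dCas9 (catalytically dead Cas9). No group carried a virus without the activator, so transduction and the activator cannot be told apart in a contrast with wild type. Stable transfectants were enriched by FACS, per the study's methods, and a step of single-cell cloning is not given in the sources used here.

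CD45 is the receptor-type tyrosine phosphatase of nucleated blood cells, which acts on Src family kinases at the antigen receptor. Its transcript holds variable exons that are kept in naive lymphocytes and B cells and skipped in activated or memory T cells and in plasma cells, so that the protein is the B220 form when all are kept and the CD45RO form when all are skipped. hnRNP L is a ubiquitous RNA-binding protein with a preference for CA-rich RNA that represses these exons, and its paralogue hnRNP L-like, encoded by Hnrnpll, is induced during lymphocyte activation and plasma cell differentiation and promotes the skipping of them.

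The 3 variable exons of Ptprc are shown because they are the part of the transcript on which both regulators act. They lie on the minus strand of chromosome 1 in GRCm38 (mm10) at chr1:138122456-138122584 (exon 4, 129 bases), chr1:138120020-138120166 (exon 5, 147 bases) and chr1:138117754-138117894 (exon 6, 141 bases), inside the coding part of the gene. Their sequences from the GENCODE M21 transcripts are printed 5′ to 3′ on the transcribed strand, with each CACA match in capitals, also where matches overlap.
Exon 4: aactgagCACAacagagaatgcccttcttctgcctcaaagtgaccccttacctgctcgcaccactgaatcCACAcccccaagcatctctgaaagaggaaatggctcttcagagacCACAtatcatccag
Exon 5: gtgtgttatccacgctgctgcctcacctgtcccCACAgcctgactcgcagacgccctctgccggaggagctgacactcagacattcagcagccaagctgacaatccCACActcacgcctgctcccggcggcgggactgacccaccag
Exon 6: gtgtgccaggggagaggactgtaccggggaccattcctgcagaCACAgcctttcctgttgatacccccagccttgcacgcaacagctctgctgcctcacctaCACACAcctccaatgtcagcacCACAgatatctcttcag
Exon 4 held 3 matches, exon 5 held 2 and exon 6 held 4, searched on the transcribed strand alone since the factor binds RNA. Among internal exons of protein-coding transcripts with the same length, 46.5% of 1399, 51.2% of 1262 and 49.9% of 1227 held at least 1 match, and 4.29%, 16.3% and 1.55% held at least as many as exon 4, exon 5 and exon 6. The 3 exons are all present in Ptprc-207 and all absent from Ptprc-203, and together they make up 417 of the 5074 bases of Ptprc-207, or 8.22%. The deposited counts are sums per gene, so which of these exons were kept in A20 cells cannot be read from them, and the values that follow are levels of the gene as a whole.

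Libraries held between 23194920 and 121623410 counts, with the control sgRNA libraries the deepest. The label check by the targeted gene held in all 6 libraries, since Cd4 reached 30959 and 40422 counts with its own sgRNA and no more than 127 elsewhere. All 7 B cell markers examined were above the floor of 3 counts in every library, and their summed level was 1826 to 1838 CPM (counts scaled to a common library size by TMM) in wild type, 1151 to 1377 in control sgRNA cells and 1112 to 1161 in Cd4 sgRNA cells. Of 10 T cell markers, 7 were at or under the floor in every library, with Cd3e and Cd8b1 at 0, and the sums were at most 8.97 CPM. The control sgRNA replicates differed from each other by more than the others did, with a chi-square of 397 per degree of freedom against 19.6 in wild type and 12.9 in Cd4 sgRNA cells. This statistic of raw counts grows with depth, so part of its size in the deepest libraries can come from depth. Mitochondrial genes took 6.63% and 11.5% of the counts in control sgRNA replicates 1 and 2, 5.96% and 6.90% in Cd4 sgRNA cells and 2.65% and 2.69% in wild type. The fold changes of the 3 genes and the counts of calls in the gene lists and around the 3 genes are therefore also given without each control sgRNA library.

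Hnrnpll (Entrez gene 72692, chromosome 17 from 80029487 to 80062268 in GRCm38) was scarce in wild-type A20 and many times more abundant in both transduced groups. It was counted 142 and 72 times in wild-type replicates 1 and 2, with exact Poisson intervals of 120 to 167 and 56.3 to 90.7 at 95% that cover counting error only. In control sgRNA cells it was counted 3885 and 3364 times, and in Cd4 sgRNA cells 818 and 1236 times. Scaled to library size this was 3.06 and 3.36 CPM in wild type, 34.97 and 41.6 CPM with control sgRNA, and with Cd4 sgRNA 24.96 and 27.9 CPM. In bulk libraries, more cells that express a gene and more RNA per cell cannot be told apart. Each of the 3 groups stood clear of the others, with wild type lowest, Cd4 sgRNA between and control sgRNA highest, and the gaps exceeded the spread of the replicates. The log2 fold change of control sgRNA against wild type was 3.59 (standard error 0.15) and that of Cd4 sgRNA against wild type was 3.05 (standard error 0.15, an 8.30-fold difference). Between Cd4 sgRNA and control sgRNA cells it was -0.53 (standard error 0.13). Both contrasts with wild type share the wild-type libraries. Ranked by log2 fold change, Hnrnpll was in place 155 of 12430 tested genes in each of them. In control sgRNA against wild type, Slc17a7 at 3.59 and Elovl7 at 3.60 stood just above it and Rtkn2 at 3.58 and Aldh1a2 at 3.57 just below. Over 16 alternative settings the log2 fold change lay between 3.47 and 3.74 for control sgRNA against wild type, between 2.97 and 3.14 for Cd4 sgRNA against wild type, and between -0.64 and -0.40 for Cd4 sgRNA against control sgRNA. Without control sgRNA replicate 1 or 2 these were 3.74 or 3.47, 3.09 or 3.07, and -0.64 or -0.40.

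**Figure D1:**
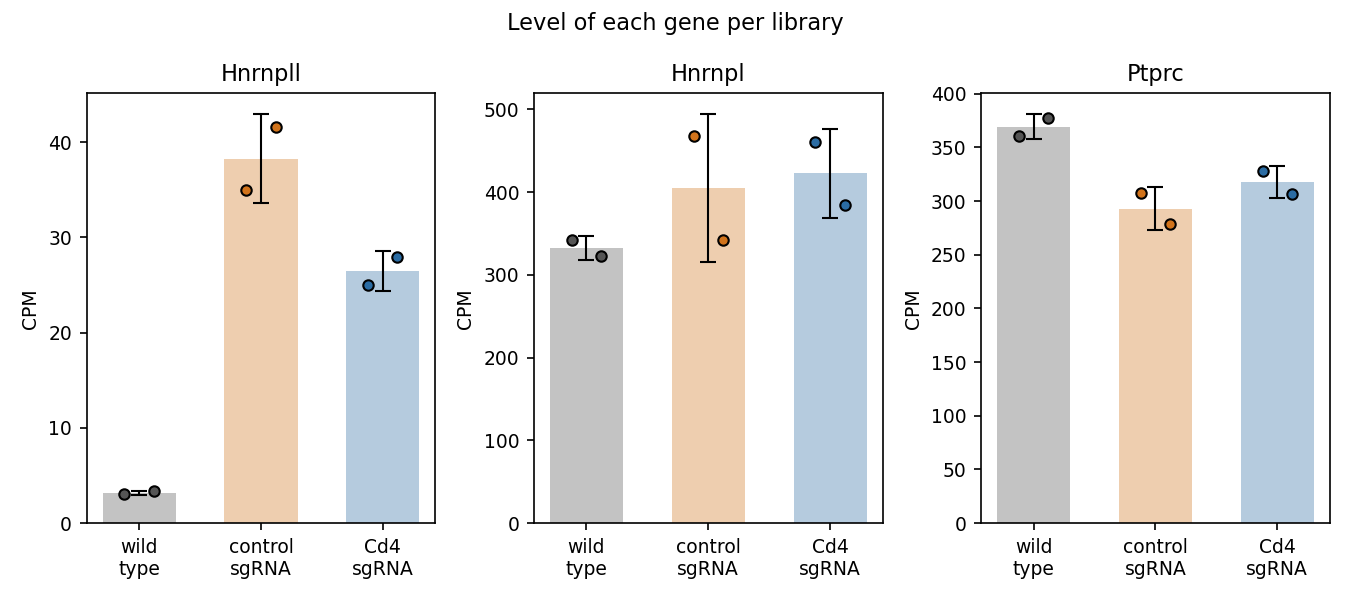
Level of Hnrnpll, Hnrnpl and Ptprc in CPM on a linear axis from 0, where points are the 2 libraries of each group, bars the group mean and error bars the SD. Hnrnpll lay at 3.06 and 3.36 CPM in wild type and at 24.96 CPM or more in every transduced library, whereas Hnrnpl overlapped between control sgRNA and wild type and Ptprc was lower in every transduced library than in wild type.

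Hnrnpl (Entrez gene 15388, chromosome 7 from 28808546 to 28822268) was abundant in all 6 libraries. It was counted between 6905 and 52044 times and stood at 343 and 322 CPM in wild type, 468 and 342 CPM with control sgRNA and 461 and 385 CPM with Cd4 sgRNA. Both Cd4 sgRNA libraries were above both wild-type libraries, whereas control sgRNA replicate 1 was the highest of the 6 libraries and control sgRNA replicate 2 lay within the range of wild type. Against wild type, Cd4 sgRNA cells differed by 0.35 on the log2 scale (standard error 0.17, 95% interval -0.06 to 0.75), which missed the threshold (edgeR's quasi-likelihood test, adjusted p = 0.18). Between Cd4 sgRNA and control sgRNA cells it was 0.06 (interval -0.34 to 0.46, adjusted p = 0.82 from edgeR's test). For control sgRNA against wild type it was 0.28 (standard error 0.17), and leaving out control sgRNA replicate 1 gave 0.06 and leaving out replicate 2 gave 0.50. The spread of the control sgRNA libraries entered all of these through the variance that the groups share. With control sgRNA replicate 1 or 2 left out, Hnrnpl in Cd4 sgRNA against wild type was 0.37 or 0.35. In a fit of those 2 groups alone it was 0.34 and passed the threshold (adjusted p = 0.0094, edgeR's test). That fit called 3786 genes higher and 3701 lower of 12052 tested. Over the alternatives the log2 fold change in this contrast ranged from 0.21 to 0.47. Between Cd4 sgRNA and control sgRNA the sign depended on 1 library. The change was 0.31 without control sgRNA replicate 1, -0.15 without control sgRNA replicate 2 and -0.07 without Cd4 sgRNA replicate 1.

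Per length, Hnrnpl remained far above its paralogue in every library. In RPKM (CPM per kilobase of exon), with exon lengths of 3116 bases for Hnrnpll and 2142 bases for Hnrnpl as given in the count files, Hnrnpll was at 1.03 ± 0.070 (SD, n = 2) in wild type, 12.3 ± 1.5 in control sgRNA and 8.49 ± 0.67 in Cd4 sgRNA cells. Hnrnpl was at 155 ± 6.7, 189 ± 42 and 197 ± 25 RPKM in the same order. The level of Hnrnpll as a percentage of that of Hnrnpl was 0.613 and 0.717 for wild type, 5.13 and 8.36 for control sgRNA, and 3.72 and 4.98 for Cd4 sgRNA. The ratio was higher in every transduced library than in both wild-type libraries, and control sgRNA replicate 2, at 8.36%, was the highest. Ranked by RPKM among the tested genes, Hnrnpll was in places 10134 and 10025 in the wild-type replicates, 5862 and 5363 in those of control sgRNA and 6771 and 6435 in those of Cd4 sgRNA, while Hnrnpl stayed between places 349 and 570. Put the other way, Hnrnpl exceeded Hnrnpll 163-fold and 140-fold in wild type and between 11.96-fold and 26.9-fold in the transduced libraries.

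**Figure D2:**
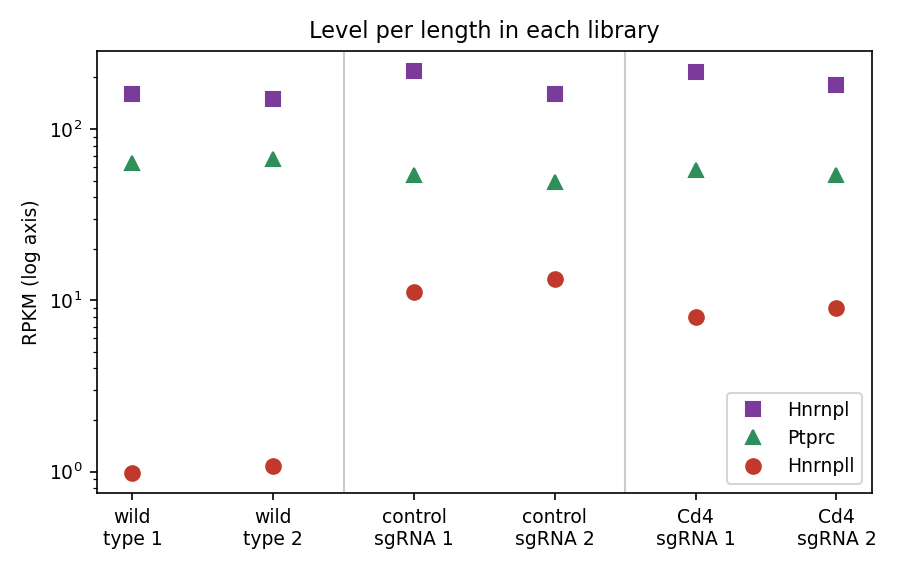
RPKM of Hnrnpl, Ptprc and Hnrnpll in each of the 6 libraries, on a log axis, with 1 point per gene and library. Hnrnpl lay at 151 to 219 RPKM and Ptprc at 49.2 to 66.7 RPKM throughout, while Hnrnpll went from 0.981 and 1.08 RPKM in wild type to between 8.01 and 13.3 RPKM in the transduced libraries.

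Among 29 hnRNP genes ordered by RPKM, Hnrnpll sat at the low end and Hnrnpl in the upper middle. Hnrnpll was the lowest of the 29 in wild type, in place 28 with Cd4 sgRNA and in place 26 with control sgRNA, so it stayed among the least abundant members after its change. In wild type it lay below Ptbp2, the neuronal polypyrimidine tract protein, at 3.85 RPKM. Its neighbour in the transduced groups was Hnrnph3, at 11.2 RPKM with control sgRNA and 8.95 RPKM with Cd4 sgRNA, and both gaps were smaller than the SD of Hnrnpll. Hnrnpl was in place 11 in wild type, 9 with control sgRNA and 10 with Cd4 sgRNA. Its neighbours in wild type were Hnrnpc at 171 RPKM and Raly at 154 RPKM, and the latter lay within the range of the Hnrnpl replicates.

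**Figure D3:**
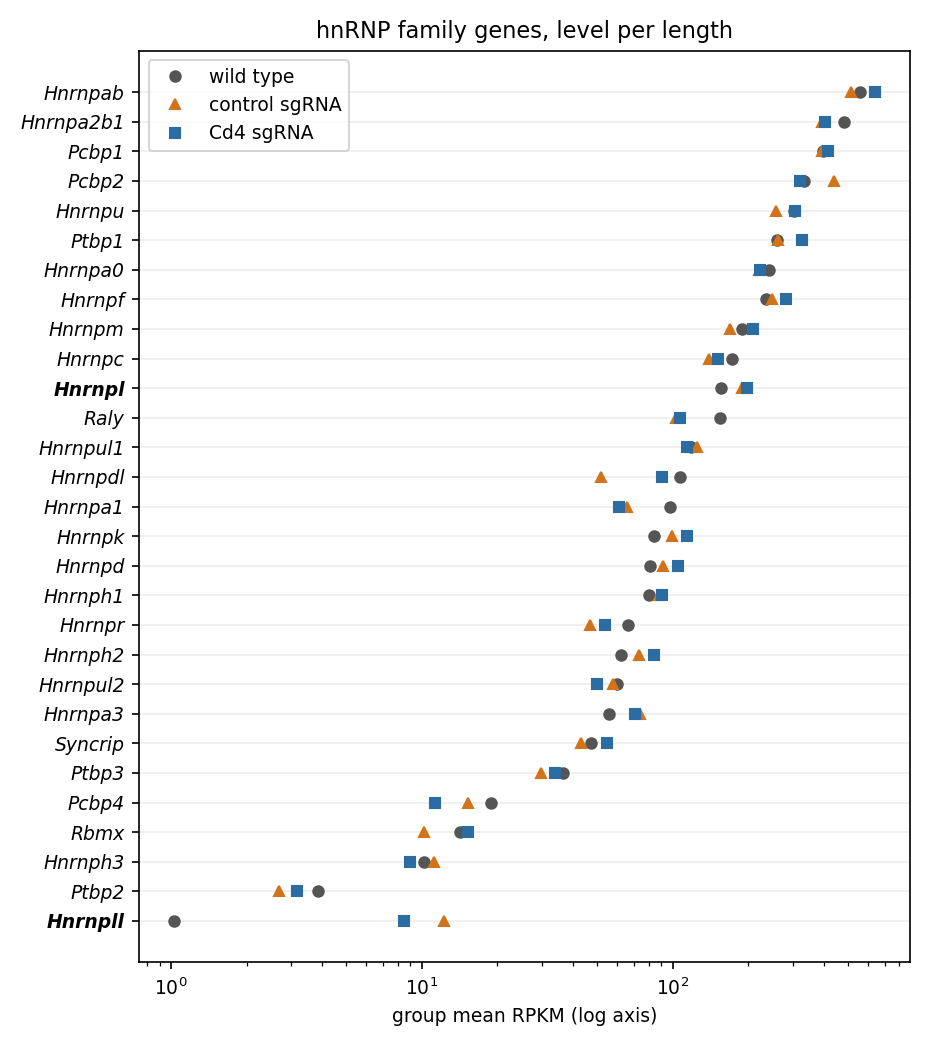
Group mean RPKM (log axis) of 29 hnRNP genes in wild type, control sgRNA and Cd4 sgRNA cells, in the order of the wild-type level, 1 point per gene and group. Hnrnpll moved from 1.03 RPKM in wild type to 12.3 and 8.49 RPKM, while Hnrnpl stayed between 155 and 197 RPKM.

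Ptprc (Entrez gene 19264, chromosome 1 from 138062859 to 138175756) was well expressed in all libraries and stood slightly lower in every transduced library than in wild type. It was counted between 8086 and 34140 times and stood at 361 and 378 CPM in wild type, 307 and 279 CPM with control sgRNA and 328 and 307 CPM with Cd4 sgRNA. Every transduced library was below both wild-type libraries, and the ranges of the control sgRNA and Cd4 sgRNA libraries overlapped. The share of all tested genes whose groups stand apart in this way was not computed, for Ptprc or any other gene or ratio. Of all tested genes, 23.1% had a log2 fold change as low or lower in control sgRNA against wild type. In Cd4 sgRNA against wild type it was 31.2%. Per length it was at 65.2 ± 2.1 RPKM (SD, n = 2) in wild type, 51.7 ± 3.6 in control sgRNA and 56.1 ± 2.7 in Cd4 sgRNA cells. Against wild type, Cd4 sgRNA cells differed by -0.22 on the log2 scale (standard error 0.094, 95% interval -0.44 to 0.01), which missed the threshold (edgeR's quasi-likelihood test, adjusted p = 0.14). Of the 2 genes tested in this contrast, Hnrnpl and Ptprc, 0 passed it, beside 11.3% of all tested genes higher and 11.8% lower. At an unadjusted p under 0.05 the count was also 0, and with both DESeq2 and voomLmFit it was 0. Between Cd4 sgRNA and control sgRNA cells the change was 0.12 (interval -0.11 to 0.34, adjusted p = 0.44 from edgeR's test), and for control sgRNA against wild type it was -0.33 (standard error 0.094), or -0.38 and -0.26 without control sgRNA replicate 1 and 2. As with Hnrnpl, the call in Cd4 sgRNA against wild type depended on which of the control sgRNA libraries were in the fit. In the fit of these 2 groups alone Ptprc passed the threshold (-0.22, adjusted p = 3.0e-04, edgeR's test), beside 3786 genes higher and 3701 lower of 12052 tested. Without control sgRNA replicate 1 or 2 the change in this contrast was -0.19 or -0.22. In Cd4 sgRNA against control sgRNA the change of Ptprc was 0.19 without control sgRNA replicate 1 and 0.046 without replicate 2. In the same RPKM, Ptprc per Hnrnpl was 0.398 and 0.443 in wild type, 0.248 and 0.308 in control sgRNA cells, and 0.269 and 0.301 in Cd4 sgRNA cells. This ratio was higher in both wild-type libraries than in every transduced one. Ptprc exceeded Hnrnpll 65.0-fold and 61.8-fold in wild type, 4.83-fold and 3.69-fold in control sgRNA cells, and 7.23-fold and 6.04-fold in Cd4 sgRNA cells. The 3 groups of this ratio did not overlap, which follows the levels of Hnrnpll given above. The summed level of the B cell markers was also lower in every transduced library than in wild type. The sum was 1151 to 1377 CPM with control sgRNA and 1112 to 1161 CPM with Cd4 sgRNA, and these ranges overlapped. The part of these markers in the values of Ptprc was not tested.

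The other genes of these families were described by counts. The shares of all tested genes in fits without a wild-type or a Cd4 sgRNA library are given once, with the hnRNP genes. They are to be read beside the counts of every list from those fits. Of 27 tested hnRNP genes without the 2 paralogues, 1 was higher and 4 were lower in control sgRNA than in wild-type cells, beside 15.7% of all tested genes higher and 13.6% lower at an adjusted p under 0.05 in edgeR's test. The higher one was Hnrnpa3, at 0.40 on the log2 scale (adjusted p = 0.031), and the lower ones included Raly, which binds RNA as a relative of hnRNP C, at -0.58 (adjusted p = 0.0045) and Hnrnpdl, a paralogue of hnRNP D, at -1.04 (adjusted p = 0.0047). In Cd4 sgRNA against wild type 1 was higher and 3 were lower, beside 11.3% of all tested genes higher and 11.8% lower. Hnrnph2 was at 0.44 (adjusted p = 0.042) and Raly at -0.53 (adjusted p = 0.0081). Hnrnpa1, a general splicing repressor, was at -0.68 (adjusted p = 0.0047), and in control sgRNA cells it was lower too, at -0.57 (adjusted p = 0.0056). The median log2 fold changes were -0.13 and -0.05, beside medians within 0.01 of 0 over all tested genes. These counts also rested on the control sgRNA libraries. Without replicate 1 there were 3 higher and 17 lower in control sgRNA against wild type and 10 and 9 in Cd4 sgRNA against wild type, and without replicate 2 there were 8 and 8, and 10 and 11. In those fits 26.9% to 32.7% of all tested genes were called in each direction in each contrast with wild type, 32.7% higher and 30.9% lower in control sgRNA without replicate 1 and 30.2% and 29.1% without replicate 2. Without either wild-type library 0 genes were called in both contrasts, and without either Cd4 sgRNA library 3 were lower in the former and 0 were called in the latter, where 0.645% to 7.89% of all tested genes were called in each direction.

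SR proteins, which bind exonic enhancers and often favour exon inclusion, gave 1 higher and 2 lower of 12 in control sgRNA against wild type, beside 15.7% and 13.6% of all tested genes, with a median of -0.40. Srsf11 was higher at 0.31 (adjusted p = 0.048), and Srsf2 and Srsf3 were lower at -0.91 (adjusted p = 0.033) and -0.62 (adjusted p = 0.014). In Cd4 sgRNA against wild type 1 was higher, Srsf11 at 0.47 (adjusted p = 0.018), and 0 were lower, beside 11.3% and 11.8%, with 1 lower at an unadjusted p under 0.05 and 0 by DESeq2 and by voomLmFit. Srsf2 showed the spread of the control sgRNA replicates, at 869 and 902 CPM in wild type, 598 and 345 CPM with control sgRNA and 704 and 710 CPM with Cd4 sgRNA. Without control sgRNA replicate 1 or 2 the list had 1 gene higher and 9 or 5 lower in control sgRNA and 3 higher and 5 lower in Cd4 sgRNA cells, beside 26.9% to 32.7% of all tested genes in each direction, and without either wild-type or either Cd4 sgRNA library it had at most 1 call in any contrast.

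Among 9 further regulators of the CD45 exons, which overlap these lists in Ptbp1 and 4 SR genes, 0 were higher and 3 were lower in control sgRNA than in wild-type cells, beside 15.7% and 13.6% of all tested genes (at an unadjusted p under 0.05, 0 and 4, by DESeq2 0 and 4, by voomLmFit 0 and 3). Sfpq, which encodes PSF, a repressor of CD45 exon inclusion in activated T cells, was at 1043 and 1081 CPM in wild type, 557 and 325 CPM with control sgRNA and 619 and 601 CPM with Cd4 sgRNA. All 4 transduced libraries were below wild type. Its log2 fold change was -1.27 (adjusted p = 0.011) in control sgRNA and -0.80 (adjusted p = 0.052, edgeR's test) in Cd4 sgRNA cells. Thrap3 (TRAP150), which binds PSF, had -0.60 and -0.26, and Gsk3b, the kinase that phosphorylates PSF, had 0.08 and 0.06, with no call for either. Ptbp1, the polypyrimidine tract protein, had 0.02 and 0.33, also without a call. In Cd4 sgRNA against wild type 0 of the 9 were called, beside 11.3% and 11.8% (2 lower at an unadjusted p under 0.05, 1 lower by DESeq2, 0 by voomLmFit), and without control sgRNA replicate 1 or 2 there were 4 or 5 lower and 1 higher. Without the same libraries there were 7 or 5 lower and 0 or 1 higher in control sgRNA cells, and 26.9% to 32.7% of all tested genes were called in each direction in these fits, whereas without either wild-type library there were 0 and without either Cd4 sgRNA library 2.

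**Figure D4:**
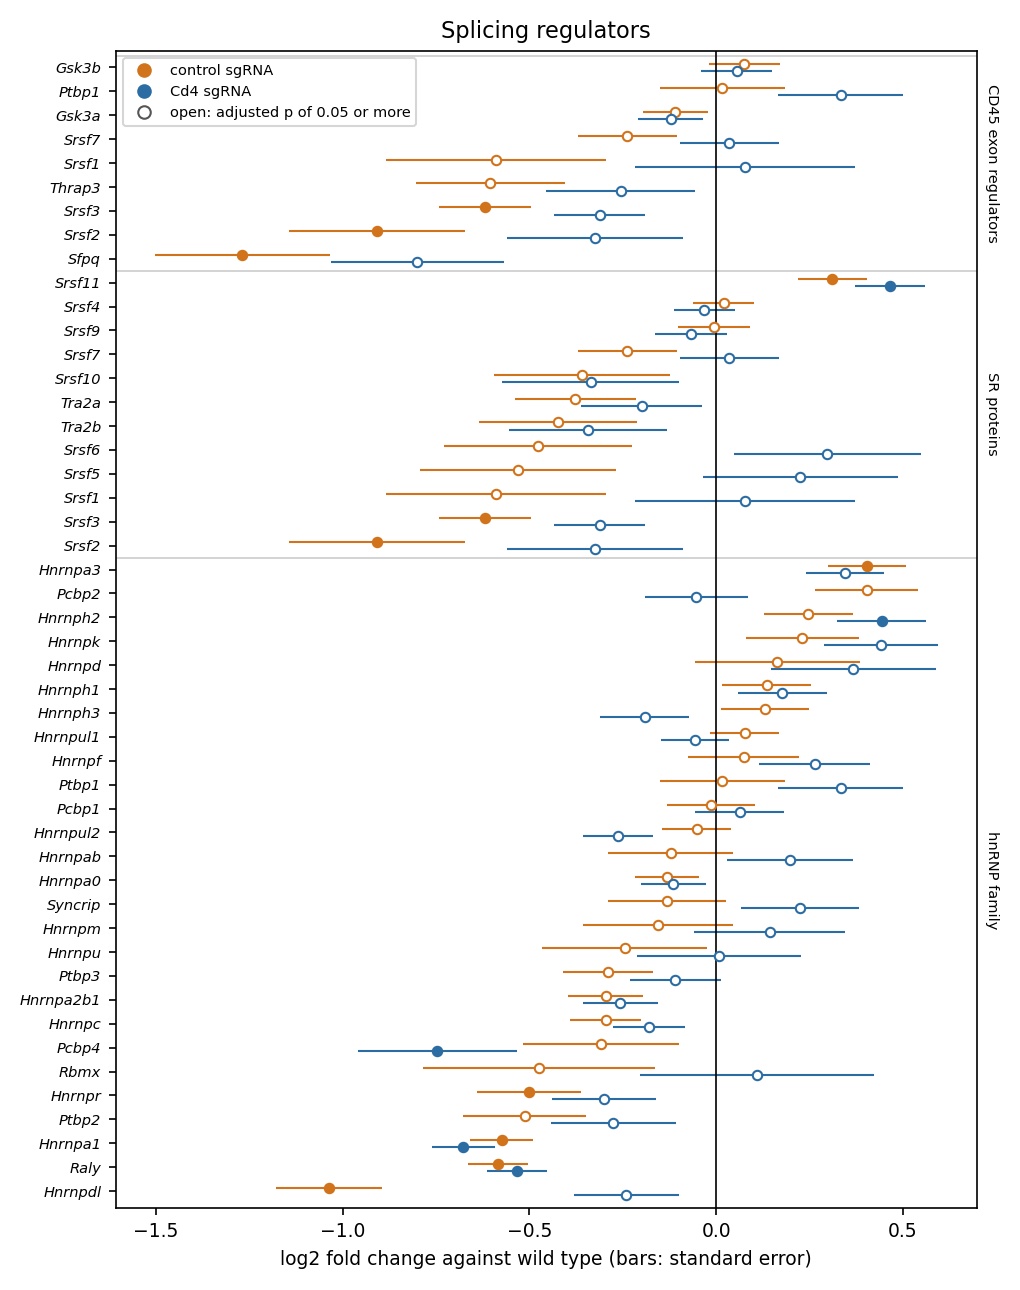
Log2 fold change against wild type with its standard error for the hnRNP, SR and CD45 exon regulator lists, in control sgRNA (orange) and Cd4 sgRNA (blue) cells, with filled points for an adjusted p under 0.05 in edgeR's test. Most points are open, and the filled ones include Sfpq at -1.27, Hnrnpdl at -1.04 and Srsf2 at -0.91 in control sgRNA cells.

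On the side of CD45, 13 of 14 kinases and partners could be tested, and they moved in both directions. In control sgRNA against wild type 5 were higher and 4 lower, beside 15.7% and 13.6% of all tested genes, and in Cd4 sgRNA against wild type 3 were higher and 4 lower, beside 11.3% and 11.8%. Pag1, the membrane adaptor that anchors the inhibitory kinase Csk, rose by 1.24 (adjusted p = 0.0067) and 1.64 (adjusted p = 0.0041), from 13.5 and 12.6 CPM in wild type to 36.7 and 24.8 CPM with control sgRNA and 40.6 and 40.9 CPM with Cd4 sgRNA. Csk itself, which phosphorylates the inhibitory tyrosine that CD45 removes, fell by 0.52 (adjusted p = 0.0079) in control sgRNA and by 0.50 (adjusted p = 0.011) in Cd4 sgRNA cells. The Src family kinases were divided. Src was at 0.97 (adjusted p = 0.0065) in control sgRNA and at 0.51 (adjusted p = 0.055) in Cd4 sgRNA cells. Yes1 was at 0.57 (adjusted p = 0.014) and 0.64 (adjusted p = 0.013) in the same order. Fyn was at -1.08 (adjusted p = 0.024) and -1.40 (adjusted p = 0.014). Ptprcap, the CD45-associated protein, was at 199 and 204 CPM in wild type, 122 and 112 CPM with control sgRNA and 159 and 167 CPM with Cd4 sgRNA. The 3 groups of Ptprcap did not overlap, in the order of the group means of Ptprc, and its log2 fold change was -0.78 (adjusted p = 0.0027) in control sgRNA and -0.30 (adjusted p = 0.0498) in Cd4 sgRNA cells. Without control sgRNA replicate 1 or 2 the list had, of 14 genes then tested, 7 or 5 higher and 5 or 6 lower in control sgRNA cells, and 4 higher and 6 lower in Cd4 sgRNA cells, beside 26.9% to 32.7% of all tested genes in each direction. Without either wild-type library at most 1 gene was called in any contrast, and without either Cd4 sgRNA library 3 were higher and 3 lower in control sgRNA and 1 was higher in Cd4 sgRNA cells.

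Of 16 other phosphatases tested, 1 was higher and 4 lower in control sgRNA, beside 15.7% and 13.6% of all tested genes, and 1 was higher and 5 lower in Cd4 sgRNA against wild type, beside 11.3% and 11.8%. Dusp6 and Dusp2, dual-specificity phosphatases of MAP kinases, were lower at -1.65 (adjusted p = 4.4e-04) and -1.62 (adjusted p = 5.4e-04) in control sgRNA cells and at -1.57 (adjusted p = 5.3e-04) and -1.31 (adjusted p = 0.0011) in Cd4 sgRNA cells. Ptpn6, which encodes SHP-1, was higher in Cd4 sgRNA cells at 0.46 (adjusted p = 0.014), and Ptpn2 was higher in control sgRNA cells at 0.32 (adjusted p = 0.042). The median of this list was -0.05 in control sgRNA and 0.03 in Cd4 sgRNA cells, beside the -0.33 and -0.22 of Ptprc. Without control sgRNA replicate 1 or 2 there were, of 17 then tested, 6 or 3 higher and 7 or 6 lower in control sgRNA, and 5 higher and 6 or 7 lower in Cd4 sgRNA cells, beside 26.9% to 32.7% of all tested genes in each direction. Without either wild-type or either Cd4 sgRNA library 0 were higher, while 3 or 4 were lower in control sgRNA and 2 or 3 in Cd4 sgRNA cells.

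Since Hnrnpll is known from plasma cells, genes of that programme and of B cell identity were set beside it. Of 14 plasma cell genes, 5 were higher and 5 lower in control sgRNA, beside 15.7% and 13.6% of all tested genes, and 4 higher and 5 lower in Cd4 sgRNA against wild type, beside 11.3% and 11.8%. Irf4, a transcription factor of activated B cells and plasma cells, rose by 1.82 (adjusted p = 0.0027) in control sgRNA and 1.69 (adjusted p = 0.0046) in Cd4 sgRNA cells. Creb3l2, a transcription factor of the secretory pathway, rose by 3.25 (adjusted p = 0.0014) and 3.30 (adjusted p = 0.0015) in the same order. Sdc1, the plasma cell surface marker CD138, rose by 0.73 (adjusted p = 0.0040) and 0.93 (adjusted p = 0.0027). Xbp1, a regulator of secretion, instead fell by 0.60 (adjusted p = 0.0056) and 0.50 (adjusted p = 0.013). The receptor gene Slamf7 fell by 0.50 (adjusted p = 0.0081) and 0.54 (adjusted p = 0.0085). Prdm1, which encodes Blimp-1, was at 4.05 and 3.74 CPM in wild type, 9.29 and 33.0 CPM with control sgRNA and 8.61 and 7.88 CPM with Cd4 sgRNA, so that control sgRNA replicate 2 stood apart. Prdm1 is named here after its values were seen. Without control sgRNA replicate 1 or 2 there were 6 or 5 higher and 5 or 7 lower in control sgRNA, and 5 higher and 7 lower in Cd4 sgRNA cells, beside 26.9% to 32.7% of all tested genes in each direction. Without either wild-type library 2 were higher and 0 lower in control sgRNA and 1 or 2 higher and 0 lower in Cd4 sgRNA cells, and without either Cd4 sgRNA library 4 and 3, and 2 or 3 and 0.

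B cell identity genes, of which all 15 were tested, gave 0 higher and 8 lower in control sgRNA, beside 15.7% and 13.6% of all tested genes, and 0 higher and 10 lower in Cd4 sgRNA against wild type, beside 11.3% and 11.8% (0 higher at an unadjusted p under 0.05, by DESeq2 and by voomLmFit in both). Pou2af1, the B cell coactivator, fell by 0.92 (adjusted p = 0.0018) and 0.94 (adjusted p = 0.0020), Spi1, which encodes PU.1, fell by 0.83 (adjusted p = 0.0017) in control sgRNA cells, and Bcl6, the germinal centre repressor, fell by 1.12 (adjusted p = 0.0022) in Cd4 sgRNA cells. The list medians of -0.57 and -0.42 were below the -0.33 and -0.22 of Ptprc in the same contrasts. Without control sgRNA replicate 1 or 2 there were 12 or 13 lower in control sgRNA and 13 or 14 lower in Cd4 sgRNA cells, with 1 higher in control sgRNA cells without replicate 1, beside 26.9% to 30.9% of all tested genes lower. Without either wild-type library there were 3 and 2 lower, and without either Cd4 sgRNA library 5 and 2. In Cd4 sgRNA against control sgRNA, 0 of the 101 genes in all 7 lists passed the threshold, beside 0.0161% of all tested genes higher and 0.0563% lower. At an unadjusted p under 0.05 there were 11 higher and 13 lower of the 101, DESeq2 called 8 and 2, and voomLmFit called 0. This count too rested on the control sgRNA libraries, since without replicate 1 there were 42 higher and 29 lower of 103, beside 30.2% and 30.3% of all tested genes, and without replicate 2 there were 17 and 11, beside 12.1% and 12.9%. Without replicate 1 these held 16 higher and 4 lower of the 27 hnRNP genes, 10 and 0 of the 12 SR genes, 7 and 0 of the 9 CD45 exon regulators, and 4 and 8 of the 15 B cell identity genes. Without replicate 2 the same lists held 1 and 2, 4 and 3, 2 and 0, and 2 and 3. Leaving out any other library gave 0 calls in the lists.

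**Figure D5:**
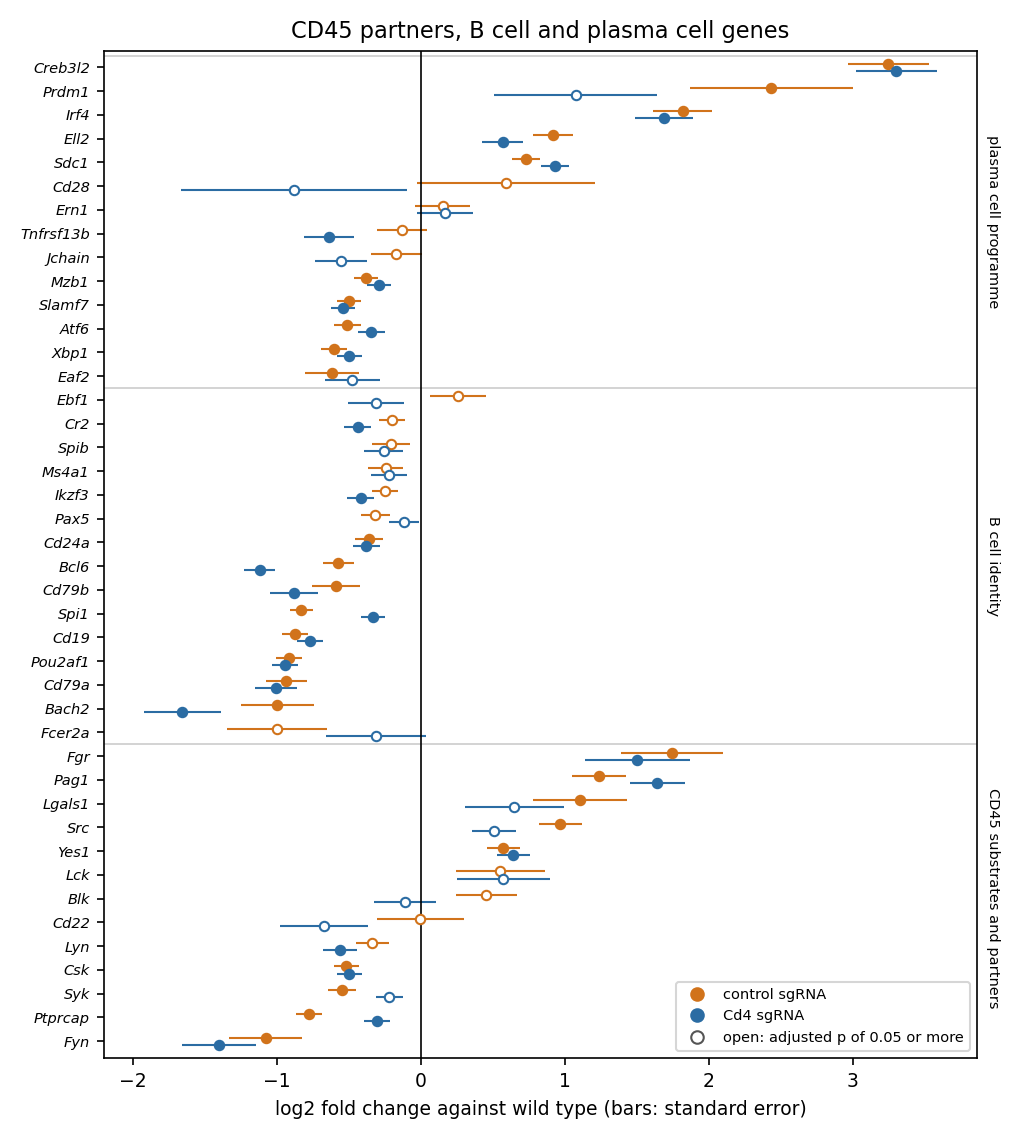
Log2 fold change against wild type with its standard error for CD45 partners, B cell identity and plasma cell genes, in control sgRNA (orange) and Cd4 sgRNA (blue) cells, with filled points for an adjusted p under 0.05 in edgeR's test. The filled B cell points all lie below 0, and Creb3l2 at 3.25 and 3.30 lies farthest to the right.

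The tested genes whose pattern over the 6 libraries was most like each member were taken by the root mean square difference of centred log2 CPM. For Hnrnpll they were Syngr1 (0.11), Rtkn2 (0.13), Rhox4a (0.13), Osbpl3 (0.18) and Rhou (0.19), where Hnrnpll itself had an SD of 1.72 over the libraries. Syngr1 went from 0.646 and 0.654 CPM in wild type to 7.04 and 10.4 CPM with control sgRNA and 5.65 and 6.42 CPM with Cd4 sgRNA. Rhox4a was at 0 counts in both wild-type libraries and at most 0.519 CPM in every other, so no fold is given for it. For Hnrnpl, with an SD of 0.23, they were Ptges3-ps (0.05), Canx (0.05), Gm6153 (0.05), Gnl3l (0.05) and Cbx5 (0.05), where Ptges3-ps and Gm6153 are annotated as pseudogenes and can share reads with their parent genes. Canx, which encodes calnexin, was at 560 and 502 CPM in wild type, 707 and 556 CPM with control sgRNA and 743 and 640 CPM with Cd4 sgRNA. For Ptprc, with an SD of 0.16, they were Zfp275 (0.03), Ywhah (0.03), Neurl4 (0.03), Stk4 (0.03) and Hps1 (0.03). Stk4, the kinase MST1, was at 343 and 343 CPM in wild type, 280 and 256 CPM with control sgRNA and 297 and 292 CPM with Cd4 sgRNA, close to Ptprc in level as well as in pattern.

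Genes annotated within 250 kb of each member were also examined. Around Hnrnpll, 6 of 17 annotated genes were tested, of which 2 were called in control sgRNA and 3 in Cd4 sgRNA against wild type, beside 29.3% and 23.1% of all tested genes called in either direction. Atl2 was higher at 0.42 (adjusted p = 0.012) and 0.29 (adjusted p = 0.043), Gemin6 at 0.47 (adjusted p = 0.038) and 0.61 (adjusted p = 0.022), and Dhx57 was lower in Cd4 sgRNA cells at -0.55 (adjusted p = 0.031). Galm, at a distance of 65.2 kb, never exceeded 10 counts and was not tested. The neighbours tested lay between -1.06 and 0.47 in control sgRNA and between -0.55 and 0.61 in Cd4 sgRNA cells, beside the 3.59 and 3.05 of Hnrnpll. The lowest was Ttc39d, at 12 to 35 counts per library, with -1.06 (adjusted p = 0.12) and -0.36 (adjusted p = 0.60). The gene Srsf7, itself an SR protein, lay 138 kb from Hnrnpll and had log2 fold changes of -0.24 and 0.04 without a call. The span of Hnrnpll overlaps 4933407O12Rik only in the stretch from 80062222 to 80062268. Whether strand was used in counting is not given, so reads of that gene in this short stretch could be included. Around Hnrnpl, 13 of 27 genes were tested, of which Pak4 was higher at 0.56 (adjusted p = 0.0091) and 0.34 (adjusted p = 0.047) and Rinl, 9.58 kb away, was lower at -0.995 (adjusted p = 0.0072) and -0.58 (adjusted p = 0.042). The lncRNA Gm19897, at 7 to 16 counts per library, was lower in control sgRNA cells at -1.83 (adjusted p = 0.028). Around Ptprc 1 of 7 was tested, Atp6v1g3, which had no call. With control sgRNA replicate 1 left out, 6 of the 6 neighbours of Hnrnpll were called in control sgRNA and 3 in Cd4 sgRNA against wild type, and 8 and 7 of the 13 of Hnrnpl, beside 63.7% and 59.4% of all tested genes. With control sgRNA replicate 2 left out, 2 and 3 were called around Hnrnpll and 6 and 7 around Hnrnpl, beside 59.3% and 60.1%. Without either wild-type library no neighbour was called, and without either Cd4 sgRNA library the calls were Pak4 and Rinl in control sgRNA cells. Between Cd4 sgRNA and control sgRNA 0 neighbours of the 3 genes were called (the smallest adjusted p was 0.10, for Dhx57), beside 0.0724% of all tested genes. As for the lists above, calls in this contrast depended on the control sgRNA libraries.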

How the data were processed

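Polyadenylated RNA of 6 A20 libraries was sequenced, and the authors used Rsubread with its inbuilt mm10 RefSeq annotation to align the reads and featureCounts to count them. The deposited values are raw counts per Entrez gene, with the exonic length of each gene beside them, and strand and multi-mapping settings are not given in the sources used here. RefSeq genes of GRCm38.p6 gave symbols and positions, matched by Entrez identifier for 25275 of 27179 genes. Genes without a symbol or with a duplicated one, mitochondrial genes, rRNA genes and genes of type other were removed, which left 25227, and filterByExpr left 12430. A table of the whole series was not used.

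Counts were scaled by TMM and tested with edgeR 4.0.16 (glmQLFit and glmQLFTest, robust, two-sided, 1 term per group over all 6 libraries) in R 4.3.3, with Benjamini-Hochberg adjustment over all tested genes at 0.05. Every adjusted p in the text is from this test unless another is named. Standard errors are the log2 fold change over the root of the F statistic, and intervals use the degrees of freedom of the same test. CPM and RPKM were computed here, and centred log2 CPM used a prior count of 2. With 2 libraries against 2 an exact permutation p cannot fall below 0.333, so calls rest on the model. Alternatives were voomLmFit of limma 3.58.1, which the authors used, DESeq2 1.42.0, RLE or no scaling factors, other filters, the replicate number as a block, the 2 groups alone, thinned control sgRNA counts and each replicate left out. The tests were also run on simulated counts with the same spread in every group. In the data the control sgRNA libraries differed more, so that run does not bear on the calls given here.

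The members and lists were chosen with earlier results of these data known. Named genes are the 3 members, up to 2 genes per direction with the smallest p in each list and contrast with wild type, the 5 nearest genes per member, and neighbours within 250 kb. Examples outside this rule (Thrap3, Gsk3b, Ptbp1 and Prdm1) were taken after their values were seen.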

Additional observations from a re-analysis of the deposited data

How the results depend on the processing

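Hnrnpll kept its direction in all 3 contrasts under all 16 alternatives. For Hnrnpl and Ptprc the fits that left out one library each gave 0.21 to 0.47 for Hnrnpl in Cd4 sgRNA against wild type, -0.15 to 0.31 for Hnrnpl in Cd4 sgRNA against control sgRNA, -0.27 to -0.16 for Ptprc in Cd4 sgRNA against wild type and 0.046 to 0.19 for Ptprc in Cd4 sgRNA against control sgRNA. In the fit of the 2 groups alone, Hnrnpl was 0.34 and Ptprc -0.22 in Cd4 sgRNA against wild type, both past the threshold. Counts over all genes depended on the setting. The 2 groups alone gave 1006 higher and 824 lower in control sgRNA against wild type, where the fit of all 6 libraries gave 1955 and 1693, and 3786 and 3701 in Cd4 sgRNA against wild type, where it gave 1409 and 1462. In Cd4 sgRNA against control sgRNA, where it gave 2 and 7, DESeq2 gave 528 and 881, no filter on low counts 237 and 436, no annotation filter 5 and 12, the 2 groups alone 1 and 0, and voomLmFit 1 and 6. With one library left out, the counts ranged from 255 to 4190 higher and 149 to 3959 lower in control sgRNA against wild type, 138 to 4160 higher and 83 to 3692 lower in Cd4 sgRNA against wild type, and 1 to 3867 higher and 0 to 3879 lower in Cd4 sgRNA against control sgRNA, highest without a control sgRNA library. A lone library is assumed there to vary like the other groups, and the causes were not tested.

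The replicate numbers did not pair the samples (correlations of same-numbered deviations 0.02, -0.03 and -0.14). With the replicate block 1 gene was higher and 0 lower in Cd4 sgRNA against control sgRNA, and it changed no call of Hnrnpl or Ptprc. With the numbers of the control sgRNA libraries crossed, an alternative chosen after seeing the data, 1 was higher and 4 lower. The ratio of Hnrnpll to Hnrnpl per coding length was not run.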
